A study of Mus musculus with 12 samples.

Results

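The citric acid cycle genes described here were 9 enzyme and subunit genes of the mitochondrial matrix, Cs, Idh2, Idh3a, Idh3b, Ogdh, Sucla2, Suclg1, Fh1 and Mdh2, taken by gene name from a table of 17752 genes. All 9 were in the table and all 9 passed the filter on low values that left 12744 genes for testing. The choice rested on function, but it was made with earlier results of these data known. The paper had reported the tricarboxylic acid cycle among the pathways raised in sedentary knockout muscle. The shares of members called below are therefore a description and no independent support. The data are RNA-seq of 12 libraries from the EDL (extensor digitorum longus) of male mice, a hind limb muscle made mostly of fast-twitch fibers, with 3 libraries in each of 4 groups of genotype and training.

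In the strNrip1-/- mice, whose libraries the labels call Nrip1KO, loxP sites flank the last exon of Nrip1, which holds the whole coding sequence. A Cre driven by the muscle creatine kinase (MCK) promoter removes it in heart and skeletal muscle. Nrip1 encodes RIP140, a corepressor of nuclear receptors. The WT controls (labelled Ctrl) were Cre-negative littermates, so the floxed allele is shared by both genotypes. The floxed line was C57BL/6J and the Cre mice it was bred with are given as C57BL/6JN, so both parental backgrounds enter all groups. Trained mice had nocturnal access to a running wheel for 8 weeks from 8 weeks of age, with the wheels taken away before the endpoints, and sedentary mice had no wheel. Because MCK-Cre does not act in vessels, nerve, connective tissue or fat, those cells in the whole muscle keep Nrip1, and in a bulk sample fewer cells of a type and less RNA per cell cannot be told apart.

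The citric acid cycle oxidises the acetyl group of acetyl-CoA, which comes from pyruvate, fatty acids, ketone bodies and amino acids, to carbon dioxide, and hands the electrons to the respiratory chain as NADH and FADH2. Citrate synthase and the isocitrate and 2-oxoglutarate dehydrogenases are its classical control points, and citrate synthase is widely used as a marker of mitochondrial content in muscle. Fast-twitch muscle relies more on glycolysis than slow-twitch muscle, and its oxidative enzymes are known to respond to endurance training.

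Values are FPKM, the fragments of a gene scaled by transcript length and library depth, which makes levels of different genes roughly comparable. Summed FPKM ran from 1029000 to 1325000 a library. The median over genes tested of a library's ratio to the mean library was 0.992 to 1.004. As deposited, the median gene was thus nearly level between libraries, while the sums were not. Comparison between libraries depends on their scaling, which is varied below. A gene is called where limma gave a Benjamini-Hochberg adjusted p below 0.05 over all 12744 genes and the fold was above 1.2. Differences are on the scale log2(FPKM + 0.5), Nrip1KO minus Ctrl or trained minus sedentary, with their standard error (SE). The scale estimated from the spacing of low values was 20.2 to 29.2 M fragments a library. It equals the depth only if the deposited values were divided by depth and by no other library factor. The targeted gene went against its label: Nrip1 was at 2.53 to 4.76 FPKM in the 6 Ctrl libraries and at 14.9 to 20.7 FPKM in the 6 Nrip1KO libraries, a log2 difference of 2.11 ± 0.14 (SE). A gene-level value does not separate the deleted exon from those that stay, so it does not check the deletion, and each direction below is between libraries as they are labelled. Markers of the muscle fiber were high everywhere, with a summed level of 28990 to 46430 FPKM over 6 genes, and those of fast fibers at 80530 to 123700 FPKM over 8 genes, against 57.9 to 563 FPKM over 7 slow-fiber genes.

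Within the cycle the most abundant member was Mdh2, the malate dehydrogenase that regenerates oxaloacetate, with a mean of 722 FPKM over the 12 libraries. It stood above Idh3b, the next member, in 12 of 12 libraries. Idh3b and Idh3a, the regulatory and the catalytic subunit of the NAD-dependent isocitrate dehydrogenase, followed at means of 394 and 369 FPKM, in that order in 11 of 12 libraries. Ogdh, the substrate-binding first component of the 2-oxoglutarate dehydrogenase complex, averaged 333 FPKM. Sucla2, the ATP-forming beta subunit of succinyl-CoA ligase, averaged 329.6 FPKM, and Cs, citrate synthase, 322 FPKM. The order of these neighbours differed between groups. Ogdh exceeded Sucla2 in 0 of 6 Ctrl and in 5 of 6 Nrip1KO libraries, and Sucla2 exceeded Cs in 6 of 6 sedentary and in 0 of 6 trained libraries. Suclg1, the alpha subunit shared by both succinyl-CoA ligases, averaged 213 FPKM. Idh2, the NADP-dependent mitochondrial isocitrate dehydrogenase, averaged 206 FPKM and stood below Suclg1 in each of the Ctrl libraries but above it in 3 of 3 trained Nrip1KO libraries. Fh1, fumarase, was the lowest at 123 FPKM and lay below Idh2 in 12 of 12 libraries.

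**Figure D1:**
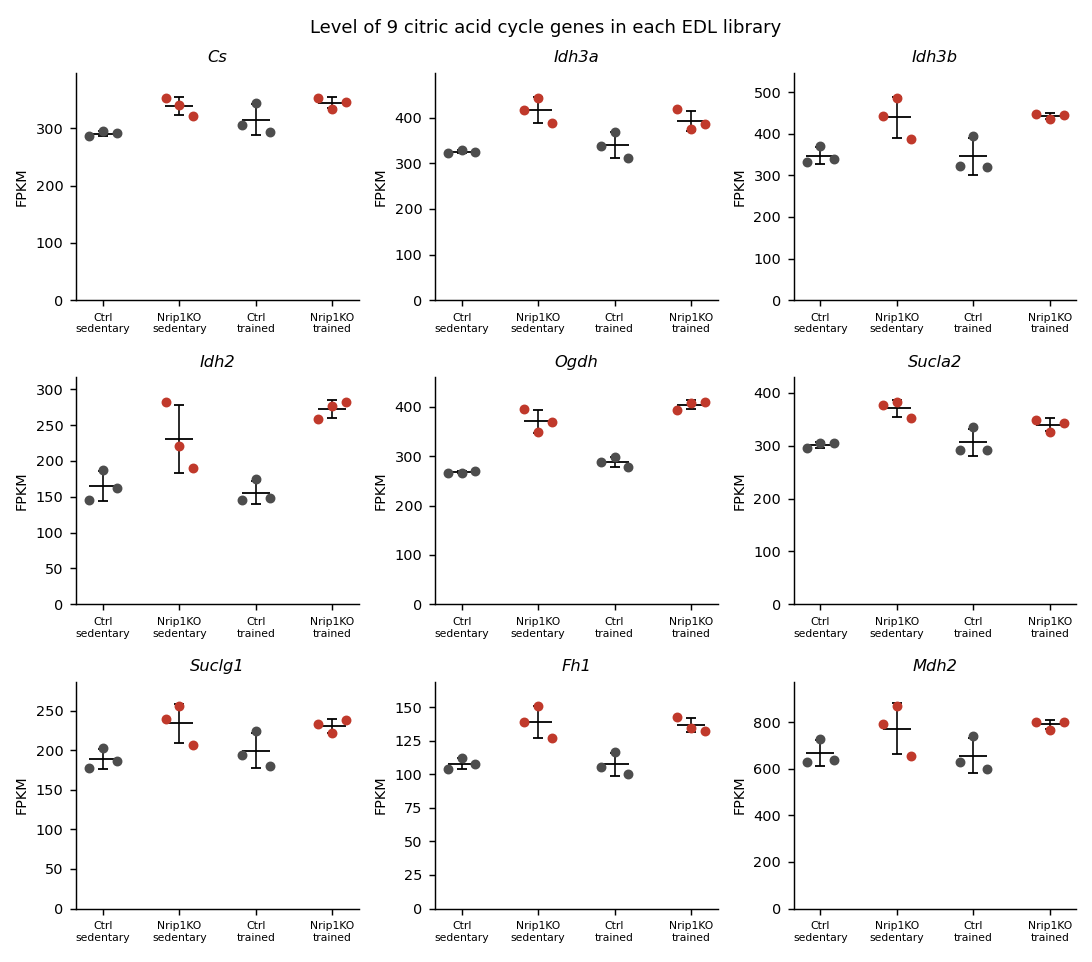
FPKM (y axis, from 0) of each of the 9 cycle genes in the 4 groups; points are libraries (grey Ctrl, red Nrip1KO) and black bars the group mean with SD, n = 3. The Ogdh points of both Nrip1KO groups lie at 349 FPKM or more, above the highest Ctrl point at 299 FPKM.

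The genomic sites of the members, in mm10 coordinates from the GENCODE M21 annotation, are spread over 9 chromosomes. Cs lies at chr10:128337734-128362479, Idh2 at chr7:80094846-80115392, Idh3a at chr9:54586334-54604661 and Idh3b at chr2:130279309-130284547. Ogdh spans chr11:6291633-6356642, Sucla2 chr14:73525319-73596142 and Suclg1 chr6:73248382-73276911, while Fh1 is at chr1:175600374-175625635 and Mdh2 at chr5:135778480-135790398. All are protein coding. The library kit keeps no strand, and Idh3b and Fh1 each overlap a protein-coding gene on the other strand (Nop56 and Kmo). These partners reached at most 25.8 and 2.13 FPKM in any library, against a lowest value of 319 FPKM for Idh3b and 99.9 FPKM for Fh1.

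Promoter windows are shown for Ogdh and Fh1, the members called higher in both training states, and for Mdh2, the most abundant of those called in neither. Each is a RefSeq window on GRCm38.p6 from 250 bases before to 50 bases after an annotated start, written 5′ to 3′ on the strand of the gene, with capitals marking a match to the NRF1 core (GCGCATGCG) or the Sp1 box (GGGCGG) on either strand.
Ogdh, chr11:6292308-6292607, plus strand: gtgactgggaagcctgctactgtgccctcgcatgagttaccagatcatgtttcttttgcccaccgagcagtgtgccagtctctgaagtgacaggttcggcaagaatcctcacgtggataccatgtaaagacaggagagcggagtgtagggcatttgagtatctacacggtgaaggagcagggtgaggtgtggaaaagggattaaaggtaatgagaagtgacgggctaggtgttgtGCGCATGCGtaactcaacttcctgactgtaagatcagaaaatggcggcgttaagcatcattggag
Fh1, chr1:175625586-175625885, minus strand: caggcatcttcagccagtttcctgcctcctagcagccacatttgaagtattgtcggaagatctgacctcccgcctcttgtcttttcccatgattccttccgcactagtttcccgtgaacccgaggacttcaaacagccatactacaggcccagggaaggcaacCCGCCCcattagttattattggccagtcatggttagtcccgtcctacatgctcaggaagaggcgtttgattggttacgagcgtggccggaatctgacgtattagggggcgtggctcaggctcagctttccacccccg
Mdh2, chr5:135778399-135778698, plus strand: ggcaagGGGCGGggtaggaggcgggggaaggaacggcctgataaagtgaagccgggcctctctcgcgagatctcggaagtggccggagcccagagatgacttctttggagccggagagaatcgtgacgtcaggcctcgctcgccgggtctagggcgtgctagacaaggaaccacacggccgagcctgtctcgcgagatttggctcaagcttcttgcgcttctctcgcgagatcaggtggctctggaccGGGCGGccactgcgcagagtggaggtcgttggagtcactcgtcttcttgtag
The Ogdh window holds 1 NRF1 core. Of the 6 windows of this gene, 1 other overlaps it and holds the same site. The remaining Ogdh windows hold an Sp1 box and no NRF1 core. The Fh1 window holds 1 Sp1 box and the Mdh2 window 2 Sp1 boxes. Windows were found for 8 of the 9 members, Idh3a being the exception. A gene counts as holding a motif if any of its windows does, so a gene with several windows, such as Ogdh, offers more sequence for a match. An NRF1 core was present in 1 of these 8 genes (Ogdh), against 1.95% of all 27025 genes with a window. The Sp1 box was present in 6 of 8 (Cs, Idh2, Ogdh, Sucla2, Fh1 and Mdh2), against 38.2% of all genes. The ETS core (CCGGAAG) was found in Idh3b alone, against 9.93% of all genes. An estrogen-related receptor element (TNAAGGTCA) was found in 0 of 8, against 1.43% of all genes, and a TATA box (TATAAA) likewise in 0 of 8, against 15.7%. The Sp1 box stood both in Fh1, which was called, and in Mdh2, which was not, and a match here is a description of letters only.

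In sedentary muscle the cycle genes were higher in the Nrip1KO-labelled libraries, with log2 differences from 0.21 (Mdh2) to 0.47 (Idh2) and a median of 0.33, where the median of all genes tested was 0.00. Idh3a, Ogdh, Sucla2 and Fh1 rose, and the other 5 did not pass the test. That is 4 of 9 called higher, where 1.92% of all genes tested were called higher. For 8 of 9 members, all but Mdh2, every Nrip1KO library lay above every Ctrl library, as did 9.79% of all genes.

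Ogdh showed the clearest separation of the sedentary groups. Its level was 267, 266 and 271 FPKM in the Ctrl libraries and 395, 349 and 369 FPKM in the Nrip1KO libraries. The Ctrl values lay within a few FPKM of each other and far below the lowest Nrip1KO value. The log2 difference was 0.47 ± 0.06 (SE), a fold of 1.38 (limma adjusted p = 0.00198). Idh3a, which acts one step earlier, was at 322, 329 and 325 FPKM in Ctrl and at 417, 444.5 and 388 FPKM in Nrip1KO, 0.35 ± 0.08 on the log2 scale (adjusted p = 0.0312). Its groups did not overlap either.

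Fh1 was at 104, 112 and 107 FPKM in the sedentary Ctrl libraries and at 139, 151 and 127 FPKM in the Nrip1KO libraries, with a log2 difference of 0.36 ± 0.08 (adjusted p = 0.0298). Sucla2 was at 295.5, 305 and 305 FPKM against 376, 383 and 353 FPKM, a log2 difference of 0.29 ± 0.07 (adjusted p = 0.0418). In both genes Nrip1KO replicate 3 was the lowest of its group and still above each Ctrl library. Idh2 had a difference as large as that of Ogdh, 0.47 ± 0.14, but with 283, 220.2 and 190.0 FPKM its Nrip1KO libraries were widely spread, the lowest close to the highest Ctrl value of 187 FPKM, and the adjusted p was 0.0974. Cs, Idh3b and Suclg1 differed by 0.22 ± 0.07, 0.33 ± 0.10 and 0.31 ± 0.10 (adjusted p = 0.127, 0.107 and 0.131). Mdh2, at 630.3, 730.3 and 639 FPKM in Ctrl and 792, 870.4 and 654 FPKM in Nrip1KO, was the member whose sedentary groups overlapped (adjusted p = 0.414).

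The sedentary calls other than Ogdh depended on single libraries. Ogdh alone stayed called without any one of sedentary Ctrl replicates 1, 2 or 3, sedentary Nrip1KO replicates 1 or 2, or trained Nrip1KO replicate 3, with adjusted p of up to 0.154 for the others. Idh3a and Sucla2 lost their calls without trained Ctrl replicate 1 (adjusted p = 0.0521 and 0.0578), Sucla2 without trained Ctrl replicate 3 or trained Nrip1KO replicates 1 or 2, and Idh2 was called without sedentary Nrip1KO replicate 3 (adjusted p = 0.0405). With each library rescaled to the same sum of FPKM, 0 of 9 were called, the Ogdh difference dropping to 0.31 (adjusted p = 0.0639) and the median of all genes to -0.14. With each library rescaled to the same sum over nuclear genes alone, all 9 were called, and the median of all genes rose to 0.07. Over all genes, in either direction, 652 were called under the first of these scalings and 480 under the second, against 447 as deposited.

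The share of mitochondrially encoded transcripts differed between the groups. They made up 51.2% to 52.8% of the summed FPKM in the sedentary Nrip1KO libraries, against 42.2% to 44.6% in sedentary Ctrl and 43.7% to 47.3% over the 6 trained libraries. The difference of each member kept its sign under every scaling, between 0.05 (Mdh2) and 0.55 (Idh2) in sedentary and between 0.04 (Cs) and 0.87 (Idh2) in trained libraries. Adipocyte markers were also higher in the sedentary Nrip1KO libraries, with a summed level over 7 genes of 231.5 to 351.5 FPKM against 171 to 214 FPKM in Ctrl, 4 of the 6 tested passing an unadjusted p of 0.05 and 0 of 6 being called. In trained libraries the adipocyte sums overlapped, at 219.8 to 335 FPKM in Nrip1KO and 207.5 to 249 FPKM in Ctrl. Fast-fiber markers summed to 80530 to 108400 FPKM in sedentary Nrip1KO and to 106000 to 118100 FPKM in sedentary Ctrl libraries. None of the marker genes was at 0 in every library. The part of these in the members' differences was not tested.

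In trained muscle all 9 members were again higher in the Nrip1KO-labelled libraries, from 0.13 (Cs) to 0.81 (Idh2) with a median of 0.27. Idh2, Ogdh and Fh1 rose, 3 of 9 called, where 3.21% of all genes were called higher. In 6 of 9 members every Nrip1KO library lay above every Ctrl library, as in 13.9% of all genes. The exceptions were Cs, Sucla2 and Suclg1.

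Idh2 had the largest difference of the members here. It was at 145, 174 and 148 FPKM in the trained Ctrl libraries and at 259, 276 and 282 FPKM in the trained Nrip1KO libraries. Both groups were tight and far apart, and the log2 difference was 0.81 ± 0.14 (SE), a fold of 1.75 (adjusted p = 0.007). Ogdh was at 288.5, 299 and 278 FPKM in Ctrl and at 395, 408 and 410.5 FPKM in Nrip1KO, a difference of 0.49 ± 0.06 (adjusted p = 0.00141). This was close to its sedentary difference of 0.47.

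Fh1 differed by 0.35 ± 0.08, from 105, 117 and 99.9 FPKM in Ctrl to 142, 135 and 133 FPKM in Nrip1KO (adjusted p = 0.0271). The Fh1 call was lost without any one of trained Ctrl replicates 1 or 3 or trained Nrip1KO replicates 1, 2 or 3, with adjusted p of 0.0745 to 0.106. Idh3b just missed the threshold with 0.37 ± 0.10 (adjusted p = 0.0562); it was called without sedentary Nrip1KO replicates 2 or 3 or trained Ctrl replicate 2 (adjusted p of 0.0185 to 0.0379). Its Ctrl libraries were at 321, 395.5 and 319 FPKM and its Nrip1KO libraries at 449, 436 and 445 FPKM. The Mdh2 groups no longer overlapped, at 629, 741 and 600.3 FPKM against 801.5, 769 and 802 FPKM, but the difference of 0.27 ± 0.11 did not pass (adjusted p = 0.190). Idh3a, Suclg1, Sucla2 and Cs differed by 0.21, 0.22, 0.15 and 0.13 (adjusted p from 0.136 to 0.311).

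Averaged over both training states, which sets 6 Ctrl against 6 Nrip1KO libraries, 8 of 9 members had an adjusted p below 0.05, where 5.56% of all genes did so in the same direction. Of these, 5 also passed the fold of 1.2 and were called, namely Idh2 (0.64 ± 0.10), Ogdh (0.48 ± 0.04), Fh1 (0.36 ± 0.06), Idh3b (0.35 ± 0.07) and Idh3a (0.28 ± 0.05), where 4.90% of all genes were called higher. Their adjusted p were 0.00179, 5.97e-05, 0.00216, 0.00917 and 0.00692. Suclg1 (0.26 ± 0.07), Sucla2 (0.22 ± 0.05) and Cs (0.18 ± 0.05) stayed under that fold, with adjusted p of 0.0337, 0.0139 and 0.0419, and Mdh2 (0.24 ± 0.08) had an adjusted p of 0.0829. Idh2, Idh3a, Ogdh and Fh1, 4 of 9 members, had all 6 Nrip1KO libraries above all 6 Ctrl libraries, as did 2.97% of all genes. The summed level of the 9 members was 2687 ± 180 FPKM (SD, n = 6) in Ctrl and 3334 ± 179 FPKM (SD, n = 6) in Nrip1KO libraries.

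The Idh3a call in this average lost its fold without sedentary Nrip1KO replicate 2, trained Ctrl replicate 3 or trained Nrip1KO replicate 1, with differences of 0.25 to 0.26. Suclg1 passed the fold without sedentary Ctrl replicate 2, sedentary Nrip1KO replicate 3 or trained Ctrl replicate 2 (differences of 0.29 to 0.30), and Mdh2 was called without the last or the second of these (adjusted p = 0.0385 and 0.0194). Under equal sums of FPKM Idh3a also lost its fold (0.24), and under quantile normalization Idh2, Ogdh and Fh1 remained called and Idh3a and Idh3b did not. Endothelial markers moved with genotype as well, with a summed level over 7 genes of 116 to 135.5 FPKM in Ctrl and 135 to 160.5 FPKM in Nrip1KO libraries and 1 of 7 called higher. Among the fast-fiber genes 3 of 8 were called lower, where 498 of the 12744 genes tested were called lower. The part of these markers was not tested.

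**Figure D2:**
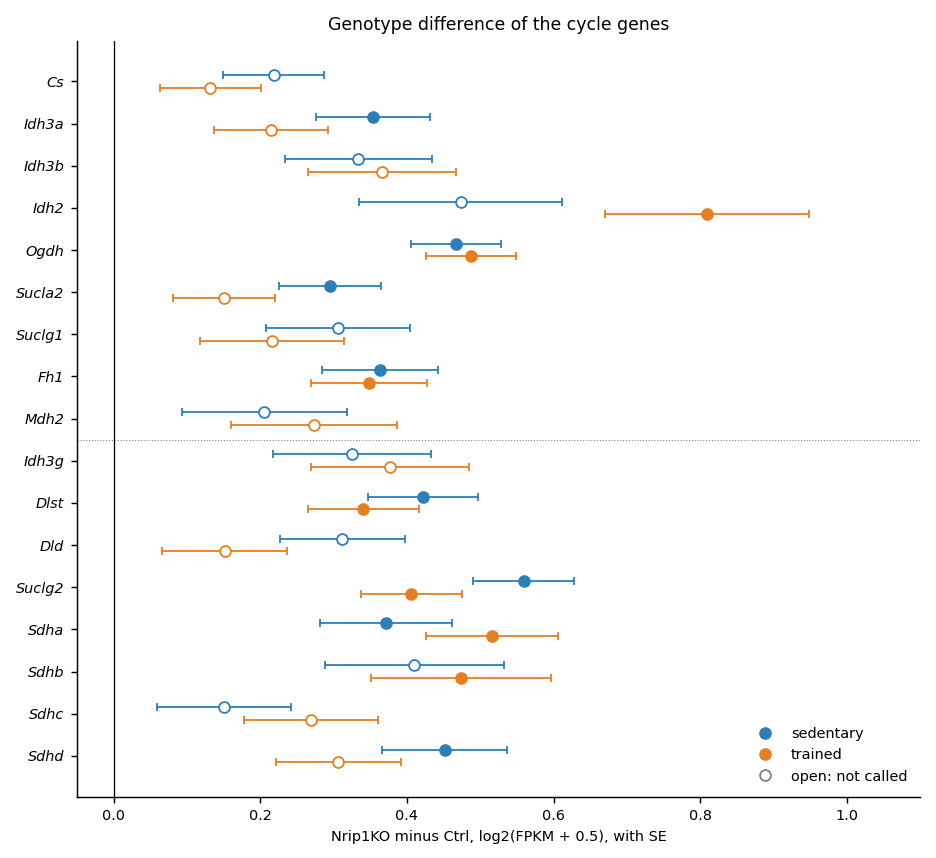
Difference Nrip1KO minus Ctrl on the log2 scale (x axis, bars are SE) for the 9 members above the dotted line and 8 other cycle subunits below it, in sedentary (blue) and trained (orange) libraries; filled points are called. All points lie to the right of 0, with Idh2 in trained libraries farthest at 0.81.

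A further 8 cycle subunits that are not members were also higher in the Nrip1KO-labelled libraries, with a median difference of 0.38 in the average. Idh3g, the other regulatory subunit of the NAD-dependent enzyme, differed by 0.35 ± 0.08 (adjusted p = 0.0128). Dlst, the succinyltransferase core of the 2-oxoglutarate dehydrogenase complex, differed by 0.38 ± 0.05 and was called in both training states. Its sedentary call was lost without sedentary Ctrl replicate 1 (adjusted p = 0.0606) and its trained call without trained Ctrl replicates 1 or 3 or any trained Nrip1KO library (adjusted p of 0.0678 to 0.0820), while no averaged call of these subunits was lost without a single library. Suclg2, the GTP-forming beta subunit of succinyl-CoA ligase, was low at 34.6 FPKM and had the largest difference of these subunits, 0.48 ± 0.05 (adjusted p = 0.000113).

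Among the subunits of succinate dehydrogenase, which joins the cycle to the respiratory chain as complex II, Sdha, Sdhb and Sdhd were called in the average with differences of 0.44 ± 0.06, 0.44 ± 0.09 and 0.38 ± 0.06. The membrane anchor Sdhc was not, at 0.21 ± 0.06 (adjusted p = 0.0609), and under equal sums of FPKM its sedentary difference was -0.01. Dld, the dihydrolipoamide dehydrogenase that 2-oxoglutarate dehydrogenase shares with the pyruvate dehydrogenase complex, had an adjusted p of 0.0306 but a fold of 1.17, and passed without trained Ctrl replicate 2 (0.27, adjusted p = 0.0118). In all, 6 of the 8 were called higher in the average, 4 in sedentary and 4 in trained libraries, and 0 were lower. Without sedentary Ctrl replicate 1 the sedentary calls of Dlst, Sdha and Sdhd were all lost, which left 1. The sedentary call of Sdha (adjusted p = 0.0471) was lost without any one library other than trained Ctrl replicates 2 and 3, with adjusted p of up to 0.153, and under equal sums of FPKM (0.0763), and that of Sdhd also without sedentary Ctrl replicate 3 or sedentary Nrip1KO replicate 1 (0.0594 and 0.0513). The trained call of Sdhb (adjusted p = 0.0444) was lost without any one library other than sedentary Nrip1KO replicates 2 and 3 and trained Ctrl replicate 2, with adjusted p of up to 0.147. Without trained Ctrl replicates 1 or 3 or any trained Nrip1KO library, Dlst and Sdhb were both lost and 2 trained calls were left.

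Partners that work in one enzyme step were compared as ratios of FPKM within each library, which cancels the scaling between libraries. Ratios were taken for 8 pairs and tested with a two-sided exact permutation of the genotype labels within each training state (400 regroupings, smallest possible p = 0.005), adjusted over the 8. The pairs were chosen after the values were seen, and the adjustment over 8 does not correct for that choice. The p-values below describe these ratios and are no independent support. Suclg2 to Sucla2, the GTP-forming against the ATP-forming beta subunit, was 0.0948 ± 0.0035 (SD, n = 6) in Ctrl and 0.114 ± 0.006 (SD, n = 6) in Nrip1KO libraries. The 2 ranges, 0.0918 to 0.101 and 0.106 to 0.121, did not overlap (exact permutation p = 0.005, adjusted 0.02). Suclg2 to Suclg1 shares Suclg2 with that pair, so it is not a separate result. Its values were 0.149 ± 0.007 and 0.175 ± 0.012 (exact permutation p = 0.005, adjusted 0.02), while Sucla2 to Suclg1 was 1.57 ± 0.08 and 1.53 ± 0.10 (exact permutation p = 0.35).

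Dld to Ogdh went the other way, from 0.475 ± 0.028 in Ctrl to 0.402 ± 0.040 in Nrip1KO libraries (SD, n = 6 each; exact permutation p = 0.01, adjusted 0.0267). It no longer passed without sedentary Nrip1KO replicates 1 or 3 or trained Nrip1KO replicate 2 (adjusted 0.05 to 0.0533). Dlst to Ogdh was 0.449 and 0.4202 (adjusted exact permutation p = 0.112). Idh2 to Idh3a, the NADP-dependent against the NAD-dependent enzyme, was 0.482 ± 0.048 and 0.625 ± 0.111 (adjusted exact permutation p = 0.07). In the trained libraries it averaged 0.459 in Ctrl and 0.695 in Nrip1KO, and in the sedentary libraries 0.506 and 0.554. Over both training states the 3 subunits of the NAD-dependent enzyme stayed near equal: Idh3b to Idh3a was 1.04 ± 0.06 in Ctrl and 1.09 ± 0.06 in Nrip1KO libraries, and the ratio of Idh3g to Idh3a differed by 0.07 on the log2 scale (adjusted exact permutation p = 0.253 and 0.309). In trained libraries Idh3b to Idh3a averaged 1.02 in Ctrl and 1.13 in Nrip1KO, and Idh3g to Idh3a 1.02 and 1.14. In sedentary libraries each averaged 1.07 in Ctrl and 1.05 in Nrip1KO. Whether these ratios differ between training states was not tested.

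**Figure D3:**
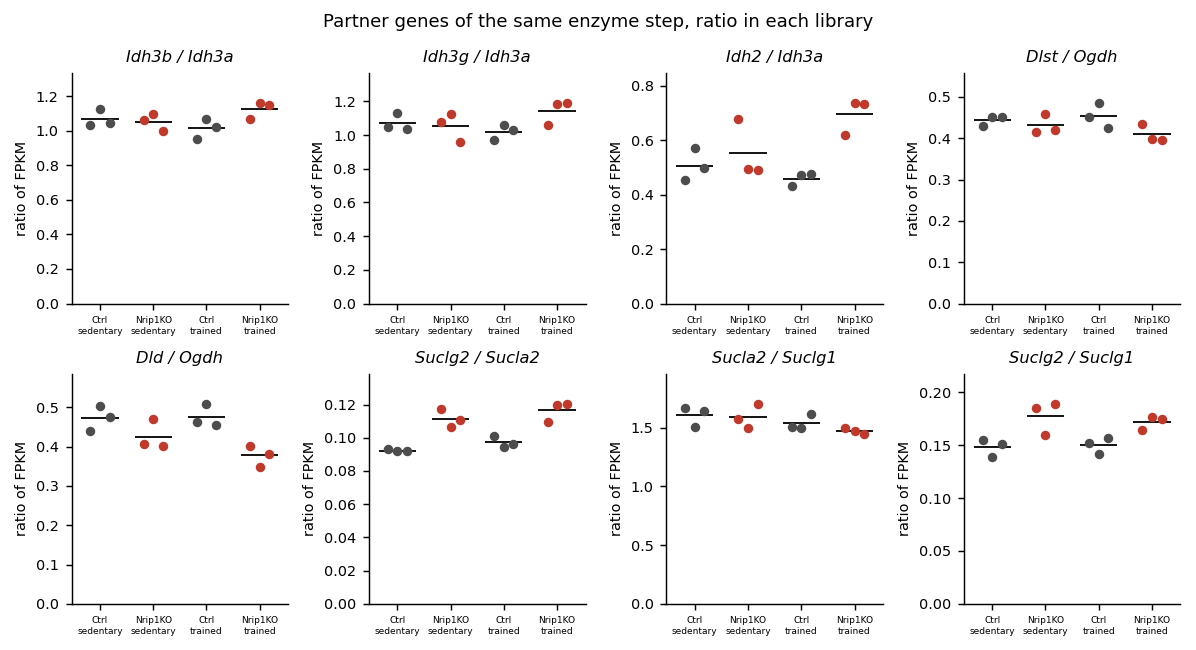
Ratio of FPKM (y axis, from 0) for 8 pairs of genes that act in one enzyme step, in the 4 groups; points are libraries (grey Ctrl, red Nrip1KO), black lines group means. The Suclg2 to Sucla2 points of the Nrip1KO groups all lie at 0.106 or more and those of Ctrl at 0.101 or less.

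No member passed the test for wheel running. In Ctrl libraries the members' differences, trained minus sedentary, ran from -0.08 (Idh2) to 0.11 (Cs) with a median of 0.02, and in Nrip1KO libraries from -0.13 (Sucla2) to 0.26 (Idh2) with a median of 0.02. limma called 0 of 9 members in Ctrl and 0 of 9 in Nrip1KO, where 0% of all genes were called in either; at an unadjusted p below 0.05 it gave 0 members in both, and 1061 and 1544 of all genes. Averaged over genotype it called 0 of 9 members, where 0.118% of all genes were called. For Cs, whose enzyme is the marker of mitochondrial content named above, the values here are RNA, from muscle taken after the wheels were removed. Cs was at 286, 295 and 291 FPKM in sedentary Ctrl and at 306, 345 and 294 FPKM in trained Ctrl libraries. These groups overlapped, and the 95% interval of the log2 difference ran from -0.04 to 0.26. In Nrip1KO libraries Cs was at 353, 340.3 and 322 FPKM in the sedentary group and at 354, 334.5 and 345.5 FPKM in the trained group, an interval of -0.13 to 0.18.

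Ogdh was the member nearest to a training difference. Averaged over genotype it was higher by 0.12 ± 0.04 in trained libraries (adjusted p = 0.313), and it was the 1 member of 9 whose trained Ctrl libraries all lay above the sedentary ones, which 14.3% of all genes did in one or the other direction. Sucla2 was the 1 member whose Nrip1KO groups did not overlap, its trained libraries at 349, 326 and 343 FPKM lying below the sedentary ones at 376, 383 and 353 FPKM, as 16.9% of all genes were apart in either direction. The difference of -0.13 ± 0.07 did not pass (adjusted p = 0.501), and under equal sums of FPKM it was 0.05. These comparisons share libraries with the genotype comparisons above.

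Whether the genotype difference changed with training was tested as an interaction, for which limma called 0 of 9 members, where 0% of all genes were called. At an unadjusted p below 0.05 it gave 0 members and 989 of all genes. The Idh2 interaction, 0.34 ± 0.20, was the largest of the members (adjusted p = 0.705), so that its call in trained and not in sedentary libraries is not shown to be a difference between them. The interaction of Sucla2, called in sedentary libraries alone, was -0.14 ± 0.10 (adjusted p = 0.742), that of Idh3a -0.14 ± 0.11 (adjusted p = 0.785), and that of Ogdh 0.02 ± 0.09 (adjusted p = 0.976).

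In each of the 4 groups most members were highest or lowest in the same library. In trained Ctrl, replicate 2 was the highest of its group for 9 of 9 members, with a summed level of 3000.0 FPKM against 2617 and 2524 FPKM in the others. In sedentary Nrip1KO, replicate 3 was the lowest for 8 of 9 members, at 2998 FPKM against 3437 and 3501 FPKM, and in sedentary Ctrl replicate 1 was the lowest for 8 of 9. Replicate 2 was the highest for 6 of 9 in sedentary Nrip1KO and for 7 of 9 in sedentary Ctrl. In trained Nrip1KO replicate 2 was instead the lowest for 6 of 9. There 5 members were highest in replicate 1 and 4 in replicate 3, with Ogdh and Idh2 lowest in replicate 1 and Cs and Idh3a highest in it. The total FPKM over all genes differed in the same order, at 1243000 in trained Ctrl replicate 2 against 1103000 and 1029000, and at 1112000 in sedentary Nrip1KO replicate 3 against 1209000 and 1325000. Its part in the members' spread was not tested.

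The genes whose profile over the 12 libraries was closest to the mean of the members, by the mean absolute difference of log2 values centred on each gene, included Acat1, Ndufa10, Pmpcb, Uqcrfs1, Rilp, Tufm, Idh3g and Ndufs1. The distance was 0.03 for Acat1 and 0.04 for Ndufs1, against a median of 0.23 over all genes tested. Of these, Idh3g is a cycle enzyme, Ndufa10 and Ndufs1 are complex I subunits and Uqcrfs1 is the Rieske protein of complex III. Acat1 is the mitochondrial acetoacetyl-CoA thiolase, Pmpcb a subunit of the peptidase that trims imported proteins, and Tufm the mitochondrial translation elongation factor. Among the members themselves Fh1 and Idh3b lay nearest to the common profile (0.03 each) and Idh2 farthest (0.19).

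Around the cycle, genes that feed or drain it differed less uniformly. Of 12 genes tested for the entry of pyruvate, 3 rose in the average: Pdp1 (0.58 ± 0.07) and Pdp2 (0.66 ± 0.18), phosphatases that activate pyruvate dehydrogenase, and Pdhx (0.30 ± 0.07), which anchors Dld in that complex. The other 9 did not pass the test, and the list median was 0.25. Pdp2 was low, at 0.853 to 4.03 FPKM, where log2(FPKM + 0.5) understates a fold. Its call was lost without any one library other than trained Nrip1KO replicates 1 and 2 (adjusted p of 0.0514 to 0.0915), and that of Pdhx without sedentary Ctrl replicate 1, trained Ctrl replicate 3 or trained Nrip1KO replicate 2 (0.0506 to 0.0548). Both were lost under equal sums of FPKM (Pdp2 adjusted p = 0.0636, Pdhx 0.26, under the fold).

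Of 18 other entry and exit genes, 10 rose in the average and 0 fell, with a list median of 0.30. Oxct1, which activates ketone bodies, went from 142 ± 11 FPKM in Ctrl to 207 ± 10 FPKM in Nrip1KO libraries (SD, n = 6 each), a difference of 0.55 ± 0.06 (adjusted p = 0.000121). Got2 and Glud1, which supply 2-oxoglutarate from glutamate, differed by 0.51 ± 0.07 and 0.30 ± 0.04. Pccb (0.52 ± 0.09) and Mmut (0.29 ± 0.06) lie on the path from propionyl-CoA to succinyl-CoA. Acss1, mitochondrial acetyl-CoA synthetase, and Slc25a12, an aspartate-glutamate carrier, differed by 0.32 ± 0.08 and 0.29 ± 0.06. The call of Acss1 was lost without sedentary Ctrl replicate 1, sedentary Nrip1KO replicate 1 or trained Ctrl replicates 1 or 3 (adjusted p of 0.0518 to 0.0603), and Mmut and Slc25a12 lost their fold without sedentary Ctrl replicate 1 and sedentary Nrip1KO replicate 2 (0.26 each). Under equal sums of FPKM the calls of Mmut (adjusted p = 0.0789), Acss1 (adjusted p = 0.0947), Glud1 (0.26, under the fold) and Slc25a12 (0.24, under the fold) were lost, that of Slc25a12 also under quantile normalization (0.24). Nnt, the transhydrogenase that makes NADPH from NADH and in which C57BL/6J mice but not C57BL/6N mice are known to carry a deletion, differed by 1.05 ± 0.20 in trained (adjusted p = 0.0125) and 0.33 ± 0.20 in sedentary libraries (adjusted p = 0.489), with an interaction of 0.72 ± 0.29 that did not pass (adjusted p = 0.621). Which Nnt allele each library carries, and its part in these values, was not tested.

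Cytosolic counterparts of the cycle enzymes split in direction. Got1, the cytosolic aspartate aminotransferase, was at 318 ± 25 FPKM in the 6 Ctrl and at 514 ± 25 FPKM (SD) in the 6 Nrip1KO libraries, differing by 0.69 ± 0.05 (adjusted p = 2.68e-05), and Mdh1, cytosolic malate dehydrogenase, rose by 0.71 ± 0.18 (adjusted p = 0.0249). The Mdh1 call was lost without sedentary Ctrl replicates 1 or 3, sedentary Nrip1KO replicate 2 or any trained Nrip1KO library (adjusted p of 0.0506 to 0.0610). Both belong to the malate-aspartate shuttle. Me1, the cytosolic malic enzyme, fell by 0.51 on the log2 scale, from 98.4 ± 9.7 to 69.3 ± 7.9 FPKM (adjusted p = 0.00166). The other 3 of 6 did not pass. Among 10 genes that assemble or lipoylate cycle enzymes, Lias (0.29 ± 0.07) and Lipt1 (0.35 ± 0.08), which make and transfer the lipoyl group that 2-oxoglutarate dehydrogenase needs, rose and the other 8 did not pass, with a list median of 0.07. The Lias call was lost without any one library other than sedentary Ctrl replicate 2, sedentary Nrip1KO replicate 3 and trained Ctrl replicate 2 (adjusted p of 0.0507 to 0.0792). Under equal sums of FPKM neither gene was called (Lipt1 adjusted p = 0.0922, Lias 0.24, under the fold).

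Set beside other energy pathways, the members' median averaged difference of 0.28 lay below that of 18 fatty acid oxidation genes (0.56, 16 called higher) and near that of 72 nuclear respiratory chain subunits (0.27, 23 called higher). Mitochondrially encoded genes had a median of 0.18 with 0 of 13 called by limma, 5 passing an unadjusted p of 0.05. Their medians were 0.41 in sedentary and -0.03 in trained libraries, whereas those of the members were 0.33 and 0.27. Genes of mitochondrial import and the outer membrane had a median of 0.18 (3 of 15 called higher). The 11 glycolysis genes had a median of -0.28, with 5 called lower and 0 higher. Of all 12744 genes tested, 624 were called higher and 498 lower in the average. The members, the other subunits, fatty acid oxidation and glycolysis kept the sign of their median under each scaling tried.

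**Figure D4:**
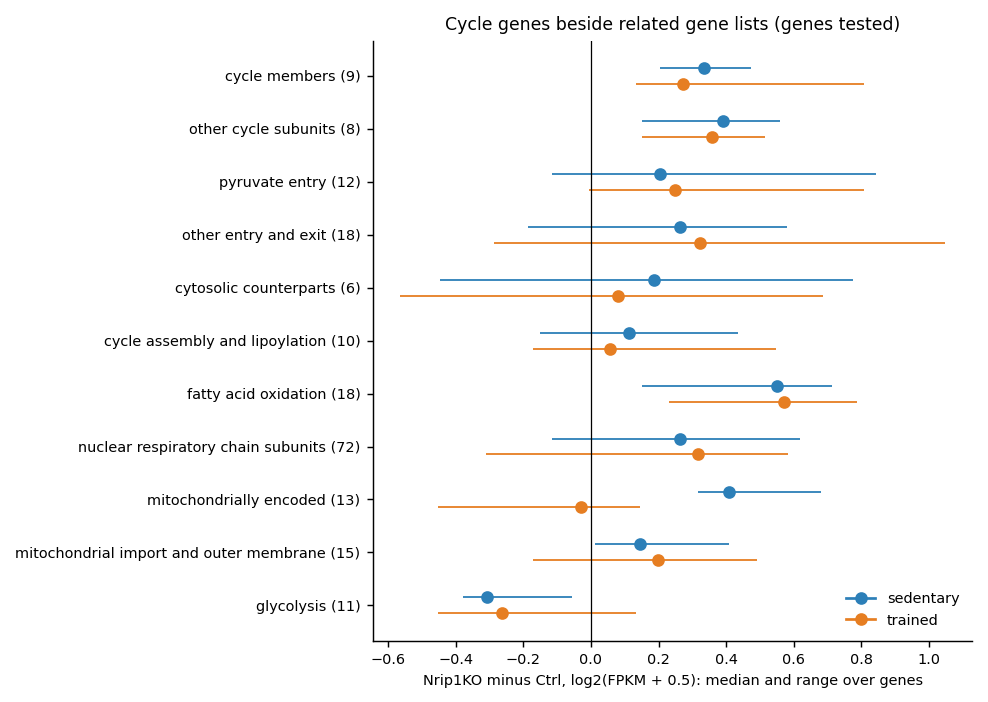
Genotype difference (x axis, log2) for the members and 10 related gene lists in sedentary (blue) and trained (orange) libraries; points are the median over the genes and lines the range from the lowest to the highest gene. The members' points sit at 0.33 and 0.27, between glycolysis at -0.31 and -0.26 and fatty acid oxidation at 0.55 and 0.57.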

How the data were processed

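Expression was measured in 12 EDL libraries, 3 in each of 4 groups set by the genotype and training labels. Per the submitters' processing notes the authors used Salmon 1.10.2 on mm10 and DESeq2 1.44.0, and the FPKM values were used as deposited. The annotation, the FPKM function and the gene filter are not given in the sources used here. The table also holds the authors' fold changes and adjusted p-values, which were not used. The study's count model needs counts, so log2(FPKM + 0.5) was fitted here with limma 3.58.1 in R 4.3.3, keeping genes whose mean reached 0.5 FPKM, with 1 coefficient per group over all 12 libraries and a prior variance that follows the mean level. Fold changes of low genes are thereby understated.

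A call needs a Benjamini-Hochberg adjusted p below 0.05 over all 12744 genes and a fold above 1.2. The steps were tested on simulated data. The scale in M fragments was read from the spacing of low values in 1613 single-transcript genes, where 98.8% to 100% of the values in a library were whole within 0.15. Ratios were tested by exact permutation with scipy 1.17.1, and figures were drawn with matplotlib 3.10.9. Alternatives changed the pseudocount (0.1, 1), the filter, the scaling, the samples fitted, the prior variance and the replicate block, or left out each library. The members and lists were chosen with earlier results of these data known, and the ratios after their values were seen. Named genes are the cycle subunits and, per related list, at most the 8 called genes of smallest p. For symbols with several identifiers the one of highest mean was taken. Some genes that the rules would name are not reported here. Nothing labels the replicates as separate animals, so p-values measure the spread between these samples, which may be technical.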

Additional observations from a re-analysis of the deposited data

How the results depend on the processing

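In the genotype comparisons every member kept its sign under every alternative, while some other differences changed sign. Under equal sums of FPKM (all-gene median -0.14 in the sedentary and 0.20 in the interaction comparison), Sdhc in sedentary libraries was -0.0057, and Sucla2 was -0.027 for training in Ctrl, 0.050 in Nrip1KO, 0.011 averaged and 0.077 for the interaction. As deposited, Sdhc was at 0.15 and Sucla2, in the same order, at 0.017, -0.13, -0.055 and -0.14. The Ogdh interaction was -0.022 under equal nuclear sums and -0.042 under quantile normalization. The cause was not tested.

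Members called in sedentary libraries (4) numbered 0 under equal sums, 9 under equal nuclear sums, 1 with the compared groups alone and 1 with a constant prior variance. In trained libraries (3) they numbered 7 and 5 under the 2 sums, and averaged (5) 4 under equal sums, 8 under nuclear sums and 3 under quantile normalization. All genes called under the 2 sums, in either direction, numbered 652 and 480 in sedentary, 679 and 615 in trained, and 953 and 1067 averaged. Under quantile normalization 1166 genes were called averaged, against 1122 as deposited, while the members called fell from 5 to 3. The count over all genes with a constant prior variance is not given here. The members' median was 0.18 and 0.41 under the 2 sums in sedentary, 0.15 under quantile normalization in trained, and under equal sums 0.19 for training in Nrip1KO and 0.20 for the interaction.

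Over all genes, 447 were called for genotype in sedentary and 762 in trained libraries, against 166 and 445 with the compared groups alone, which leaves fewer samples for the spread. Training in Ctrl called 0, but 8 with at least 5 FPKM, 1 and 2 under the 2 sums, 4 under quantile normalization and 4 with the replicate block. Training in Nrip1KO called 0, but 5 with at least 5 FPKM and 150 and 3 under the 2 sums. Averaged training called 15, but 26 under equal sums and 28 under quantile normalization.

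Leaving out each library in turn gave 164 to 482 genes called in sedentary, 315 to 874 in trained, 0 to 30 for training in Ctrl, 0 to 4 in Nrip1KO, 1 to 189 averaged and 0 to 1 for the interaction. Members called in sedentary ranged from 1 to 5, and their median from 0.27 to 0.40 in sedentary, 0.21 to 0.36 in trained and -0.071 to 0.053 for training in Nrip1KO. Idh2 for training in Ctrl ranged from -0.16 to 0.017, Sucla2 from -0.050 to 0.052, and the Ogdh interaction from -0.023 to 0.067.

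Residual correlations of same-numbered libraries ran from -0.10 to 0.24. The largest, 0.162, 0.195 and 0.241, were between the replicate 2 libraries of sedentary Ctrl, sedentary Nrip1KO and trained Ctrl. Differently numbered libraries were not set beside them, so whether a replicate number marks shared handling was not tested. With the number as a block, 441 genes were called in sedentary, 756 in trained and 1132 in the averaged comparison (1122 without it), 10 for averaged training, and among the members Sucla2 was lost in sedentary (adjusted p = 0.0529) and Idh3b gained in trained libraries (0.0315). Depth limits genes of few FPKM such as Pdp2 more than the members.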
